A study of Mus musculus with 8 samples.

Results

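The genes described here are 10 members of the CCN and YAP axis: Ctgf (CCN2), Cyr61 (CCN1), Nov (CCN3), Wisp1 (CCN4) and Wisp2 (CCN5) of the CCN family, the YAP target genes Ankrd1 and Amotl2, the coactivators Yap1 and Wwtr1 (TAZ), and their DNA-binding partner Tead1. They were chosen by symbol, in the older nomenclature that the deposited table uses. The 10 symbols matched 11 of the 22520 rows of protein-coding genes, because Tead1 is listed under 2 identifiers, ENSMUSG00000055320 and ENSMUSG00000055593, and the latter identifier is not found in GENCODE M21. Of the 11 rows, 10 reached a signal of 1 in 4 or more libraries and entered the test, and Nov did not.

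The libraries were made by mRNA-seq from liver microvascular endothelial cells (ECs) of C57BL/6 mice at postnatal day 14, with 4 libraries labelled Wildtype and 4 labelled LRP1 KO. Both groups carried floxed Lrp1 alleles on both chromosomes. WT mice were LRP1 f/f; Cdh5-CreER-/- littermates, and LRP1 eKO mice were LRP1 f/f; Cdh5-CreER+/-, in which the promoter of the endothelial cadherin gene Cdh5 drives an inducible Cre recombinase. As WT mice carried no CreER, effects of CreER and of Lrp1 deletion cannot be told apart. The methods of the study describe selection of primary ECs with PECAM-1 antibody on magnetic beads, and any treatment that activated CreER is not given in the sources used here. The labels do not say that each library came from a separate mouse, so that the p-values measure the spread between these libraries, which may be technical.

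CCN proteins are secreted, cysteine-rich matricellular proteins that bind integrins and heparan sulfate and modulate adhesion, angiogenesis and fibrosis, and CCN2 is also a ligand of LRP1. YAP and TAZ are transcriptional coactivators of the Hippo pathway. When the LATS kinases phosphorylate them they are retained in the cytoplasm and degraded, and otherwise they enter the nucleus, bind TEAD factors and switch on genes such as Ctgf, Cyr61, Ankrd1 and Amotl2, which are widely used to read out their activity. Their control is largely at the level of the protein, which mRNA-seq does not measure.

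The value of each gene is a quantile-normalized signal with no stated unit, and differences were computed after adding 1 and taking log2, which makes the changes of low genes look smaller than they are. Library depth is unknown. Lrp1, the deleted gene, had signals of 61.6, 59.0, 56.2 and 85.1 in WT libraries 1 to 4 and of 6.01, 2.16, 5.15 and 4.32 in LRP1 eKO libraries 1 to 4, which was as labelled. WT library 4 stood apart, with the lowest WT signal for 38.6% and the highest for 40.6% of the 11391 genes tested, so that each result that rests on it is given with and without it. In LRP1 eKO library 2 the summed signal of 12 macrophage and Kupffer cell markers was 51.3, against 363 to 673 in the other LRP1 eKO libraries and 108 to 212 in WT libraries.

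The markers of the labelled cell type were present at low signals. Pecam1, the antigen used for the selection, was at 2.09 ± 0.416 in WT libraries and 3.02 ± 0.911 in those of LRP1 eKO mice, and Cdh5 was at 1.86 ± 0.430 and 3.70 ± 1.34 (SD, n = 4 each). None of the 10 pan-endothelial markers was listed at 0 in all libraries, 2 were below 1 in all of them, and together they summed to between 37.9 and 39.7 in WT and between 38.9 and 55.1 in LRP1 eKO libraries. Of the 7 tested pan-endothelial markers, Cdh5 and Esam rose, 0 fell and 5 did not pass, Pecam1 among them (limma adjusted p = 0.11). Cldn5, which did not enter the test, was lower without overlap, at 0.967 to 1.19 in WT and 0.568 to 0.826 in LRP1 eKO libraries. The 8 liver sinusoidal endothelial markers summed to between 7.55 and 10.9 in WT and between 8.09 and 29.1 in LRP1 eKO libraries, with LRP1 eKO library 2 lowest of its group in both sums. The 6 cholangiocyte markers summed to 301 to 356 in WT and 233 to 696 in LRP1 eKO libraries. This sum was mostly Spp1, which was lowest in LRP1 eKO library 2 as were the macrophage markers, and without Spp1 it was 163 to 178 and 139 to 149. Msln, a marker of mesothelium, was at 1020 ± 125 in WT libraries and 1305 ± 51.0 in those of LRP1 eKO mice (SD, n = 4 each). The sum of 6 mesothelial markers was 2286 to 2767 in WT and 2961 to 3286 in LRP1 eKO libraries, but only Msln and Upk1b rose. The other 4 mesothelial markers, Upk3b, Lrrn4, Wt1 and Gpm6a, did not pass, with 3 of them lower on average, and the mean log2(signal + 1) of the list overlapped, at 7.97 to 8.27 in WT and 8.20 to 8.34 in LRP1 eKO libraries. The sum of 6 smooth muscle markers was 1455 to 1517 in WT and 1801 to 1882 in LRP1 eKO libraries, and all 5 tested genes rose. Sums of 12 stellate cell and fibroblast markers overlapped, at 2033 to 2346 in WT and 1776 to 2239 in LRP1 eKO libraries, while of 9 tested genes Pdgfra, Dcn and Lum fell, Hgf rose and 5 did not pass. The 10 hepatocyte markers were lower, at 1500 to 1551 against 616 to 902, and so were the 9 skeletal muscle markers analysed, at 48.1 to 76.1 against 14.7 to 16.2, and all of their tested genes, 8 and 6, fell. The hepatocyte sum was mostly Trf, and without it the sums were 99.9 to 149 and 35.7 to 46.5. The part of these shifts in the results below was not tested. In such bulk libraries, fewer cells of a type and less RNA per cell cannot be told apart.

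**Figure D1:**
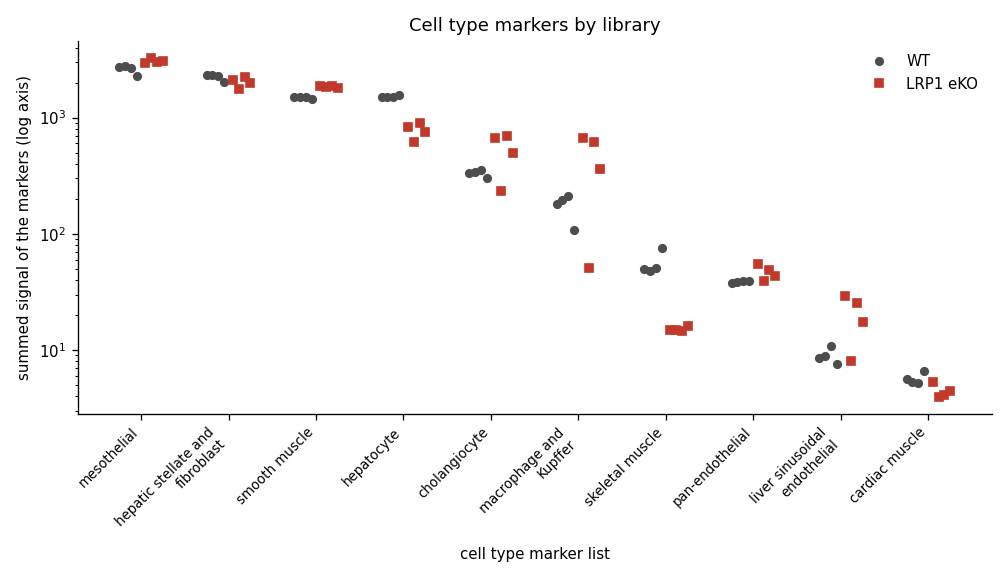
Summed signal of each cell type marker list (log axis) in each WT library (circles) and each LRP1 eKO library (squares), with libraries 1 to 4 from left to right in each group. The sums of smooth muscle markers are higher, and those of hepatocyte and skeletal muscle markers lower, in all 4 LRP1 eKO libraries. The mesothelial sum is higher too, although only 2 of its 6 genes, Msln and Upk1b, rose, and the pan-endothelial sums lie between 37.9 and 55.1 throughout.

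In LRP1 eKO libraries, the mRNAs of 3 classical YAP target genes, Ctgf, Cyr61 and Ankrd1, rose 1.63-fold to 1.72-fold. Wisp1, another CCN family gene, rose 1.31-fold. The coactivators Yap1 and Wwtr1 did not pass the test, nor did Amotl2, Tead1, Wisp2 and Nov. In all, 4 of the 10 rows tested had a limma adjusted p below 0.05, all higher in LRP1 eKO libraries and 0 lower, where 41.2% of all genes tested passed in either direction, 19.0% as higher and 22.2% as lower. A share of 4 in 10 was close to the background in either direction. At the 2-fold threshold of the study's methods, which 1.66% of all genes passed, 0 of the 10 rows passed. The groups did not overlap for 6 of the 10 rows, all higher in LRP1 eKO libraries, where 42.6% of all genes tested did not overlap in either direction and 2280 of the 11391 did so as higher.

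Ctgf encodes CCN2, a secreted protein best known as a profibrotic and angiogenic factor downstream of TGF-β and YAP. The gene lies on the plus strand of chromosome 10 of GRCm38, from 24595442 to 24598683. Its signal was 232, 218, 217 and 199.7 in WT libraries 1 to 4 and 377, 371, 377 and 368 in LRP1 eKO libraries 1 to 4. All LRP1 eKO libraries were above all WT libraries, and the spread among them was narrow, with an SD of 4.15 around a mean of 373 against 13.1 around 217 in WT. The log2 difference was 0.78 (standard error, SE, 0.048, limma adjusted p = 2.7e-06). Ordered by signal within each library, Ctgf moved from between rank 325 and 369 in WT to between rank 209 and 211 in LRP1 eKO libraries. Without WT library 4 its log2 difference was 0.75 (SE 0.033, limma adjusted p = 1.6e-06). A noncoding transcript on the opposite strand, Gm15270, shares exon bases with Ctgf, and whether the authors counted by strand is not given for this table.

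Cyr61 encodes CCN1, a secreted integrin ligand that supports endothelial adhesion and is required for vessel formation in the embryo. It lies on the minus strand of chromosome 3, from 145646976 to 145649981. Its signals were 175, 182, 181 and 168 in WT libraries and 284, 278, 307 and 283 in LRP1 eKO libraries. As for Ctgf, every LRP1 eKO library was above every WT library. The mean went from 177 ± 6.45 to 288 ± 13.0, SD over 4 libraries each, with a log2 difference of 0.70 (SE 0.046, limma adjusted p = 4.2e-06). Without WT library 4 it was 0.68.

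Ankrd1 encodes a cardiac ankyrin repeat protein, which acts in the nucleus as a cofactor and at the titin filament of striated muscle. It lies on the minus strand of chromosome 19, from 36111961 to 36120099. Its signals were 19.1, 17.98, 18.1 and 17.3 in WT and 31.0, 29.0, 31.6 and 30.9 in LRP1 eKO libraries. The groups were again separate, with means of 18.1 ± 0.739 and 30.6 ± 1.12 (SD, n = 4 each) and a log2 difference of 0.73 (SE 0.048, limma adjusted p = 4.2e-06). Skeletal muscle markers moved the opposite way, as given above, and WT library 4, in which they were highest, had the lowest Ankrd1 signal. Without that library the log2 difference of Ankrd1 was 0.71. The sum of 6 cardiac muscle markers was 5.18 to 6.65 in WT and 3.96 to 5.31 in LRP1 eKO libraries.

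For each of Ctgf, Cyr61, Wisp1 and Ankrd1, an exact permutation test (two-sided, on mean log2 values) gave p = 0.029, the smallest that 4 libraries against 4 allow. Amotl2 and Tead1 had the same value, which any gene without overlap of the groups has, as 42.6% of all genes tested. In the order of log2 fold changes among the 11391 genes tested, Ctgf was at 219, Ankrd1 at 254, Cyr61 at 275 and Wisp1 at 905 from the largest increase. The 95% confidence intervals of the first 3 overlapped, at 0.68 to 0.89 for Ctgf, 0.62 to 0.83 for Ankrd1 and 0.60 to 0.81 for Cyr61, and that of Wisp1, at 0.24 to 0.53, lay below them.

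**Figure D2:**
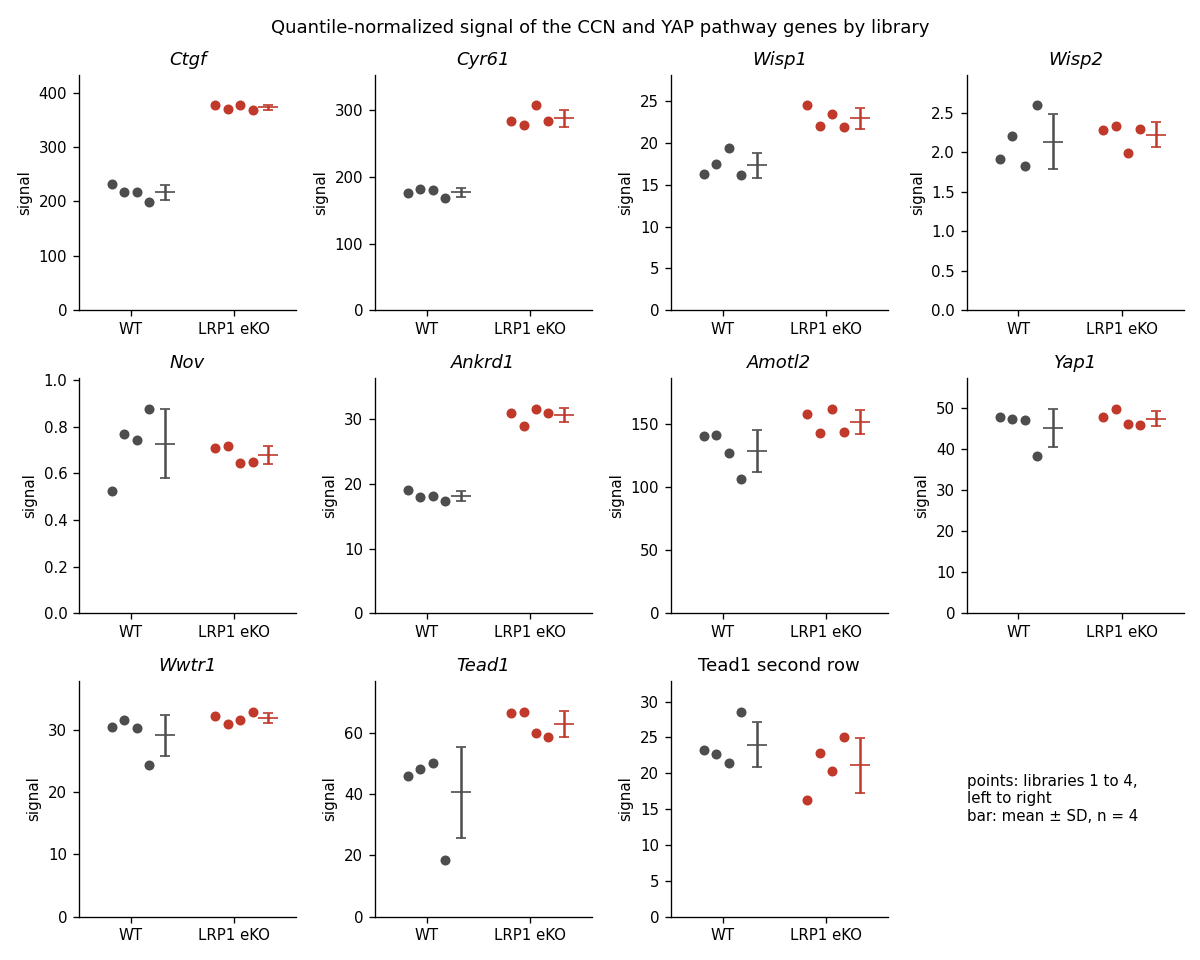
Quantile-normalized signal (vertical axis, from 0) of each gene in WT (gray) and LRP1 eKO (red) libraries. Points are libraries 1 to 4 from left to right, and the bar beside them is the mean ± SD (n = 4). Ctgf, Cyr61, Ankrd1, Wisp1, Amotl2 and Tead1 separate without overlap, Amotl2 by a narrow margin. WT library 4 lies below the other WT libraries for each of these genes and for Yap1 and Wwtr1.

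Promoter sequence was examined because several of these genes are known TEAD targets. The motif bound by TEAD, GGAATG or its reverse complement CATTCC, was searched on both strands in the 250 bases before the RefSeq transcription start. Windows were found for 5 of the 10 genes, Cyr61, Ankrd1, Amotl2, Yap1 and Wwtr1, and not for Ctgf, Nov, Wisp1, Wisp2 and Tead1. The motif occurred in the windows of all 5 genes and in 12.6% of 32851 windows of all genes, and such a match describes the sequence only. Ankrd1 had 2 copies, starting 210 and 123 bases before the start, and the copy of Cyr61 started at 103, that of Amotl2 at 65, that of Yap1 at 141 and that of Wwtr1 at 136 bases before it. It was thus present in genes that rose and in genes that did not pass the test. The sequences, from RefSeq on GRCm38.p6 and written 5′ to 3′ along the strand of each gene, show the whole 250 bases for Cyr61 and 20 bases on either side of the motifs for the others, with the motif in capitals. They cover chr3:145649986-145650235 (minus strand) for Cyr61, chr19:36119942-36120074 (minus) for Ankrd1, chr9:102717719-102717764 (plus) for Amotl2, chr9:8004712-8004757 (minus) for Yap1 and chr3:57576021-57576066 (minus) for Wwtr1. The stretches of Ankrd1 and Amotl2 lie inside the gene positions given here from GENCODE, whose starts are upstream of the RefSeq starts used.
Cyr61: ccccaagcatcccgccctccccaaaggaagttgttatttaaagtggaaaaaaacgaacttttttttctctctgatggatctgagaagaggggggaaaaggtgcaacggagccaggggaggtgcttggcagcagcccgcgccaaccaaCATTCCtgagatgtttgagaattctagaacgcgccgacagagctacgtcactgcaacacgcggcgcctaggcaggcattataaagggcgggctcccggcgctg
Ankrd1: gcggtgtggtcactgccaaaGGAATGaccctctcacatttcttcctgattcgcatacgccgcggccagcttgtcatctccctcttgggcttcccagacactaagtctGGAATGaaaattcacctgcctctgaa
Amotl2: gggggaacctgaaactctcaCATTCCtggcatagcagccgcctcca
Yap1: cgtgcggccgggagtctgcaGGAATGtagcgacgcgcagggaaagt
Wwtr1: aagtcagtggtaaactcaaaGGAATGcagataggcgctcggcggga

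Among the other 3 CCN genes, Wisp1 rose and Wisp2 and Nov did not pass the test. Wisp1 encodes CCN4, first described as a Wnt1-inducible protein, on chromosome 15 from 66891320 to 66923201. Its signals were 16.3, 17.4, 19.4 and 16.2 in WT and 24.5, 22.0, 23.5 and 21.9 in LRP1 eKO libraries. The lowest LRP1 eKO library was above the highest WT library, and the log2 difference was 0.39 (SE 0.065, limma adjusted p = 0.0013). Wisp2 encodes CCN5, which lacks the C-terminal cystine knot domain of the other CCN proteins, and lies on chromosome 2 from 163820861 to 163833146. Its signals were 1.91, 2.20, 1.82 and 2.59 in WT and 2.28, 2.33, 1.99 and 2.29 in LRP1 eKO libraries, with the LRP1 eKO values inside the WT range. The log2 difference was 0.046 (95% confidence interval -0.14 to 0.24, limma adjusted p = 0.69).

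Nov encodes CCN3, which is known to counter several effects of CCN2. The gene lies on chromosome 15, from 54745702 to 54754039. It was below 1 in all libraries, at 0.525, 0.766, 0.741 and 0.877 in WT and 0.709, 0.718, 0.645 and 0.648 in LRP1 eKO libraries, with overlap. Fitted without the filter, where 27.3% of genes passed, its log2 difference was -0.036 (95% confidence interval -0.18 to 0.10, limma adjusted p = 0.70). Wisp3, the remaining CCN gene, was listed at 0 in 4 libraries and at no more than 0.0395 in the others.

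Yap1 and Wwtr1 are the coactivators through which the pathway acts. Yap1 lies on the minus strand of chromosome 9 from 7931999 to 8004596, and shares exon bases with a noncoding transcript of the opposite strand, Gm20416. Its signals were 47.9, 47.4, 47.1 and 38.3 in WT and 47.9, 49.8, 46.1 and 45.8 in LRP1 eKO libraries. The groups overlapped, and outside WT library 4 all 7 values lay between 45.8 and 49.8. The log2 difference was 0.073 (95% confidence interval -0.087 to 0.23, limma adjusted p = 0.44), and without WT library 4 it was -0.0021 (SE 0.038, limma adjusted p = 0.97).

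Wwtr1, on the minus strand of chromosome 3 from 57455649 to 57575910, encodes TAZ, the paralog of YAP. Its signals were 30.4, 31.5, 30.2 and 24.3 in WT and 32.2, 30.9, 31.6 and 32.9 in LRP1 eKO libraries. The groups overlapped, with a log2 difference of 0.13 (95% confidence interval -0.034 to 0.30, limma adjusted p = 0.18) that was 0.053 without WT library 4 (limma adjusted p = 0.26).

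Amotl2 encodes an angiomotin-like protein of cell junctions that binds YAP and restrains it, and it is a YAP target itself. It lies on chromosome 9 from 102716672 to 102733418. Its signals were 140.1, 141, 127 and 106 in WT and 157, 143, 162 and 144 in LRP1 eKO libraries. Every LRP1 eKO library was above every WT library, but by a narrow margin, 143 against 141 (exact two-sided permutation test, p = 0.029). The log2 difference was 0.24 (standard error 0.089), and the limma adjusted p of 0.052 missed the threshold. It was 0.042 without WT library 1, 0.037 without WT library 2 and 0.062 without WT library 4, where the log2 difference was 0.15.

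Tead1 encodes a TEAD factor that binds DNA for YAP and TAZ, on the plus strand of chromosome 7 from 112679318 to 112906807. Its signals were 45.7, 48.1, 49.97 and 18.4 in WT and 66.4, 66.8, 59.8 and 58.6 in LRP1 eKO libraries. All LRP1 eKO libraries were above all WT libraries, and WT library 4 was far below the others. With it, the log2 difference was 0.72 (SE 0.27, limma adjusted p = 0.055), and without it the difference was 0.38 (SE 0.057, limma adjusted p = 0.000998), so that the size of the difference rests on this library. The call lay near the threshold and also changed without WT library 2 or 3 (limma adjusted p = 0.048 and 0.044). The second row named Tead1 had signals of 23.2, 22.7, 21.5 and 28.6 in WT and of 16.2, 22.8, 20.4 and 25.1 in LRP1 eKO libraries. These groups overlapped (log2 difference -0.19, SE 0.13, limma adjusted p = 0.27), WT library 4 had the highest signal in place of the lowest, and how reads were divided between both rows is not given.

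**Figure D3:**
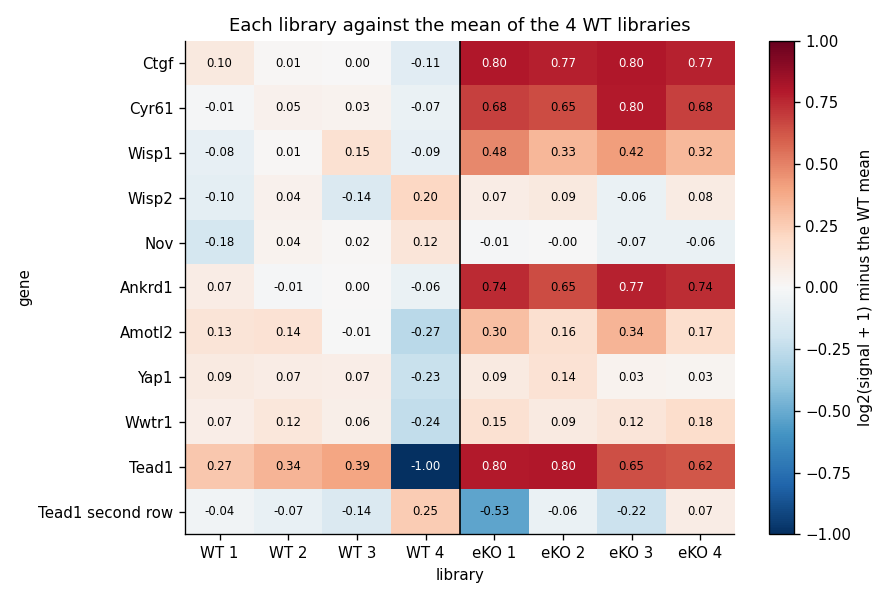
Difference of log2(signal + 1) of each gene (rows) in each library (columns) from the mean of the 4 WT libraries, in color and as a printed value. Ctgf, Cyr61 and Ankrd1 lie between 0.65 and 0.80 in all LRP1 eKO libraries, and Tead1 is at -1.0 in WT library 4.

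WT library 4 had the lowest WT signal in 8 of the 10 tested rows, and the highest in the other 2, Wisp2 and the second row of Tead1. Among LRP1 eKO libraries no library held more than 4 of the 10 lowest or 3 of the 10 highest values. LRP1 eKO library 2, which had the lowest macrophage markers, had a Ctgf signal of 371, where the LRP1 eKO libraries ranged from 368 to 377. Its Cyr61 signal of 278 was the lowest of the group, which ranged up to 307. It was the lowest LRP1 eKO library for 4 of the 10 tested rows and the highest for 3.

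**Figure D4:**
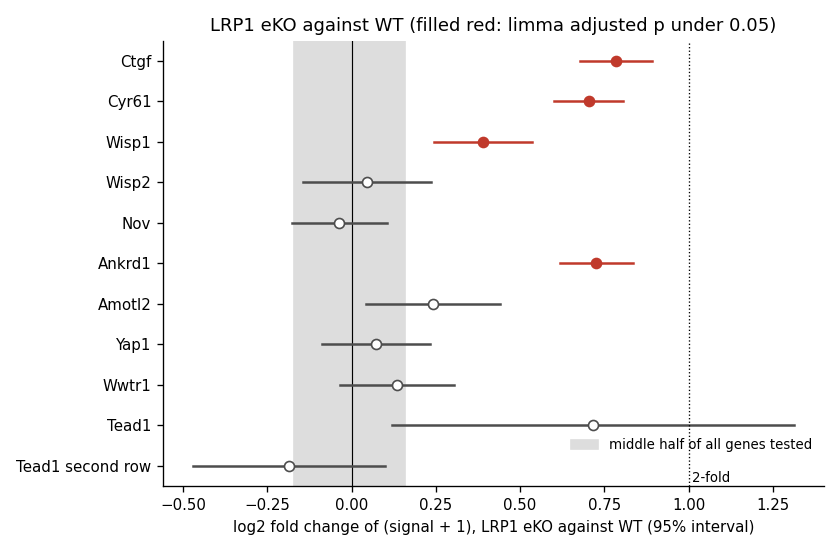
Log2 fold change of (signal + 1) in LRP1 eKO against WT libraries (horizontal axis) for each gene, with its 95% confidence interval. Filled red points have a limma adjusted p below 0.05, the gray band runs from the lower to the upper quartile of all 11391 genes tested, -0.17 to 0.16, and the dotted line marks a 2-fold change.

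Differences between genes within a library do not depend on a constant scaling factor between libraries, although quantile normalization is not such a factor. The log2 difference between 4 target genes and the pathway factors, and between 3 targets and Amotl2, was therefore compared between genotypes as a description, with no test, because the 15 gene pairs were chosen after the values had been seen. Relative to Yap1, Ctgf was higher in LRP1 eKO libraries by 0.71 (SE 0.050), Ankrd1 by 0.65 (SE 0.076) and Cyr61 by 0.63 (SE 0.076), without overlap of the groups. Relative to Wwtr1 the same genes were higher by 0.65, 0.59 and 0.57, and relative to Amotl2 by 0.54, 0.48 and 0.46, again without overlap. For Ctgf, Cyr61 and Ankrd1 relative to Tead1 the result rested on WT library 4. With it the differences were 0.067, -0.013 and 0.010, with SEs of 0.30 to 0.32 and overlapping groups. Without it they were 0.36 (SE 0.081), 0.30 (SE 0.075) and 0.32 (SE 0.091), with no overlap. Amotl2 differed by 0.17 relative to Yap1, by 0.11 relative to Wwtr1 and by -0.47 relative to Tead1 (-0.23 without WT library 4), and the groups overlapped for all 3.

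For the variation among libraries of the same genotype, the deviations of log2(signal + 1) from the group mean were compared over the 8 libraries, which share their normalization. Those of Ctgf were most like the deviations of Rnf44 (Pearson's r = 0.99, Spearman's rho = 0.90), Phf21a (r = 0.98, rho = 0.90) and Mavs (r = 0.98, rho = 0.81). For Cyr61 the most similar genes were Spryd3, D230025D16Rik and Gm20459 (r = 0.98, 0.98 and 0.97), and for Amotl2 they were Lamb2, Tcf12 and Shc1 (r = 0.99, 0.99 and 0.98). None of these 9 genes is a CCN gene. With 8 libraries and 11391 genes, such values describe these libraries only.

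The wider pathway was described by lists of genes that include none of the 10 genes above. WT library 4 was the lowest WT library for 12 of 18 other targets, 16 of 20 Hippo genes and 4 of 10 paralogs and cofactors. It was also the lowest for 10 of 12 receptor genes and 9 of 14 SRF genes. Without it, the genes past the threshold in these 5 lists numbered 11, 10, 3, 5 and 10. The values of single genes and the medians below include it. As the lists were chosen with earlier results of these data known, their shares past the threshold are a description only. Among 18 other genes commonly used as YAP and TAZ targets, 17 were tested. Of these, 11 rose, 2 fell and 4 did not pass the test, which is 76.5% past the threshold against 41.2% of all genes tested, and their median log2 difference was 0.23, against -0.0095 over all genes. F3, the gene of tissue factor, which starts blood coagulation, had signals of 56.3, 61.7, 68.3 and 59.2 in WT and 128, 141, 135 and 143 in LRP1 eKO libraries. It was the gene of this list with the largest increase, a log2 difference of 1.14 (SE 0.063, limma adjusted p = 1.5e-06), and the only tested gene of the list past 2-fold. Asap1, a regulator of Arf GTPases and the cytoskeleton, rose from 13.8 ± 2.10 to 19.7 ± 0.700, SD over 4 libraries each, with a log2 difference of 0.49 (limma adjusted p = 0.0024). Ccdc80, which encodes a secreted matrix protein, fell from 716 ± 47.6 to 479 ± 45.01 (SD, n = 4 each), by 0.58 on the log2 scale (limma adjusted p = 2.8e-04). The other gene of this list that fell was Gadd45a, a stress-response gene, by 0.27 (limma adjusted p = 0.0496), and the groups overlapped for it.

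Upstream of YAP and TAZ, 20 genes of the Hippo kinase cascade and its regulators were listed and 18 were tested. Of these, 10 rose, 0 fell and 8 did not pass, or 55.6% past the threshold against 41.2% of all genes tested in either direction and 19.0% as higher, with a median log2 difference of 0.25. The changes were small, and none reached 2-fold. Mob1a, an activating subunit of the LATS kinases, went from 31.1 ± 2.95 to 40.1 ± 0.918, SD over 4 libraries each, with a log2 difference of 0.36 (limma adjusted p = 0.0022). The upstream kinase gene Stk4 (MST1) rose by 0.37 (limma adjusted p = 0.0037) and Nf2, the gene of the membrane adaptor merlin, by 0.27 (limma adjusted p = 0.0062). Lats2 and Ptpn14, which are both regulators and targets of the pathway, are in this list and in the preceding one, and rose by 0.40 each.

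Of 10 paralogs and TEAD cofactors, 7 were tested, of which 2 rose and 1 fell, or 42.9%, close to the 41.2% of all genes tested. Vgll3, a cofactor that competes with YAP for TEAD factors, had signals of 38.5, 36.1, 34.0 and 27.0 in WT and 42.4, 50.4, 46.6 and 51.9 in LRP1 eKO libraries (log2 fold change 0.49, limma adjusted p = 0.0048). Amotl1, a paralog of Amotl2, rose by 0.67 (limma adjusted p = 0.0061), with WT signals of 43.2, 45.8, 45.5 and 26.9 and LRP1 eKO signals of 60.5 to 69.1. WT library 4 was thus the lowest for both genes. Tead2 fell by 0.22 (limma adjusted p = 0.037), and Tead3 and Tead4 did not pass, with log2 differences of 0.011 and 0.23 (limma adjusted p = 0.90 and 0.12). Vgll1 was listed at 0 in all libraries.

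CCN proteins act through integrins and other receptors, and 11 of 12 listed receptor genes were tested. Of these, 4 rose, 0 fell and 7 did not pass, or 36.4%, against 41.2% of all genes tested in either direction and 19.0% as higher. Itga6, the integrin α6 chain that binds laminin and CCN proteins, rose from 5.38 ± 0.551 to 17.8 ± 0.434, SD over 4 libraries each, with a log2 difference of 1.57 (SE 0.067, limma adjusted p = 2.7e-07). Itga5, the α5 chain of the fibronectin receptor, rose from 50.5 ± 2.95 to 99.2 ± 7.92 (log2 fold change 0.96, limma adjusted p = 4.8e-06). Igf2r and Itgb1 rose by 0.27 and 0.23 (limma adjusted p = 0.031 and 0.041). Only 2 genes of the list passed without WT library 1, LRP1 eKO library 1 or LRP1 eKO library 3. The leukocyte integrin genes Itgam and Itgb2 varied with the macrophage markers, with LRP1 eKO signals of 0.586 to 8.54 and 2.32 to 14.5 that were lowest in LRP1 eKO library 2, and did not pass (limma adjusted p = 0.073 and 0.085).

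SRF and its MRTF cofactors are known to drive Ctgf and Cyr61 alongside YAP, in response to actin dynamics. Of 14 genes of this group, all tested, 8 rose, 0 fell and 6 did not pass, or 57.1% against 41.2% of all genes tested in either direction and 19.0% as higher, with a median log2 difference of 0.22. Acta2, the gene of smooth muscle α-actin, rose from 811 ± 37.3 to 1066 ± 32.1, SD over 4 libraries each, with a log2 difference of 0.39 (limma adjusted p = 1.8e-04). Tpm1 and Tagln rose by 0.34 and 0.18 (limma adjusted p = 4.5e-04 and 0.0034), and Srf itself did not pass (log2 difference 0.13, limma adjusted p = 0.096). Acta2, Tagln and Cnn1 are also among the smooth muscle markers whose summed signal was higher in LRP1 eKO libraries. The number of genes past the threshold was 5 without WT library 3, LRP1 eKO library 1 or LRP1 eKO library 4.

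**Figure D5:**
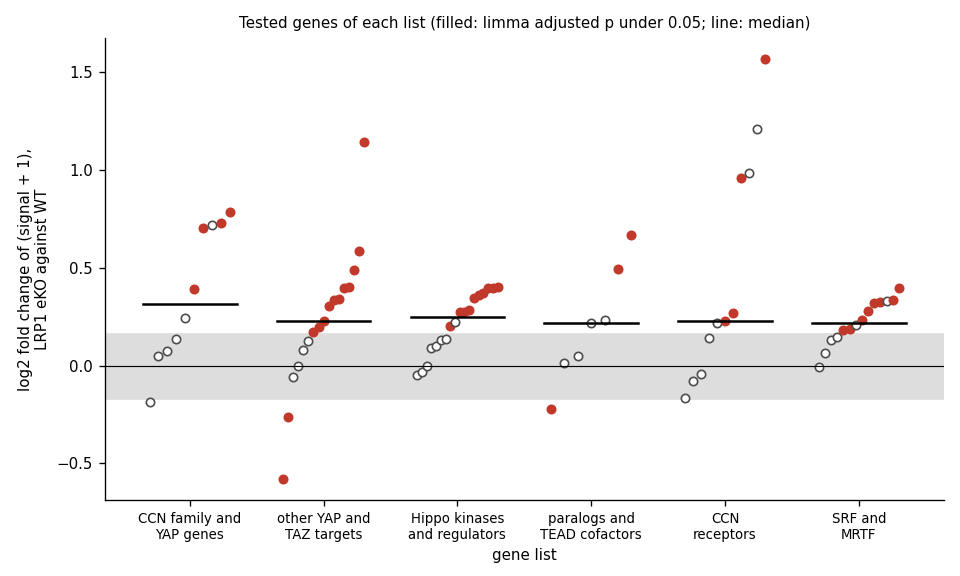
Log2 fold change of (signal + 1) in LRP1 eKO against WT libraries (vertical axis) for the tested genes of each list, with 1 point per gene and a line at the median. Filled points have a limma adjusted p below 0.05, and the gray band runs from the lower to the upper quartile of all genes tested, -0.17 to 0.16. F3 and Itga6 are the highest points of their lists, at 1.14 and 1.57.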

How the data were processed

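The libraries, 4 per genotype, were grouped by the sample titles. The authors deposited a quantile-normalized signal for each protein-coding gene and library, and the unit before normalization is not given. The submitters' processing notes name mm10, TopHat2 and Cufflinks, while the methods of the paper describe trimGalore, STAR, featureCounts and edgeR on counts, which were not used here. Quantile normalization gives each rank the same value in every library, removes global shifts and hides depth.

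From the signal, log2(signal + 1) was tested with limma 3.58.1 in R 4.3.3 (genotype as the only term, mean-variance trend, Benjamini-Hochberg adjustment over the 11391 genes that reached a signal of 1 in 4 or more libraries). This took the place of a count test because the table holds no counts. The threshold was an adjusted p below 0.05, with 2-fold as an alternative. The calculation was tested on simulated data. Positions came from GENCODE M21 on GRCm38, which holds 21740 of the 22520 identifiers, and promoters from RefSeq. Jub and Emr1 stood for Ajuba and Adgre1, and Acta1 was not analysed here. The genes and lists were chosen with earlier results of these data known. Named were all 10 genes, Lrp1, and the 3 tested genes of each list with the smallest adjusted p, beside the 3 genes most similar to each of the 3 members with the highest mean signal. Markers, and list genes named beyond this rule, were chosen after their values were seen. Alternatives were other pseudocounts (0.1 and 5), filters, array weights, robust or trend-free moderation, trimmed-mean centring, a replicate block, a ratio of means, and leaving out each library. Figures were drawn with matplotlib 3.10.9.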

Additional observations from a re-analysis of the deposited data

Results flagged for a closer look

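Dixon's test for a library far from the other 3 of its group was applied to the 10 genes, the second row of Tead1, Lrp1 and the summed cell type markers. Of 44 groups of 4 libraries, 5 had such a library, where chance gives about 2.2. The value given is the gap to the nearest library divided by the range within the group. WT library 4 was lowest for Yap1 (0.925) and for Tead1 (0.865), and highest for the summed hepatocyte markers (0.860) and the summed skeletal muscle markers (0.902). The hepatocyte sum was mostly Trf, and WT library 4 was the lowest WT library for 7 of the 10 hepatocyte markers and for their sum without Trf (99.9). It was the highest for all 9 skeletal muscle markers. LRP1 eKO library 3 was lowest for Wisp2 (0.868), with a signal of 1.99 against 2.28 to 2.33.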

How the results depend on the processing

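Ctgf, Cyr61, Wisp1 and Ankrd1 kept their direction and a limma adjusted p below 0.05 under every alternative that was fitted, with log2 fold changes of 0.75 to 0.82, 0.67 to 0.72, 0.36 to 0.44 and 0.71 to 0.75 when each library was left out in turn. The alternative that moved Ankrd1 most was a pseudocount of 5 (0.62). Lrp1 stayed between -3.93 and -2.91. The number of rows past the threshold and higher was 4 to 6 with 1 library left out, and 0 at 2-fold, and the number lower was 0 throughout. Without WT replicate 4, Nov was at 0.0049 and Yap1 at -0.0021, Wisp2 was at -0.0020 without WT replicate 3, and Yap1 was at -0.0069 with array weights, all turned in sign and none past the threshold. Over all libraries left out in turn, Nov ranged from -0.095 to 0.0049, Wisp2 from -0.0020 to 0.11 and Yap1 from -0.0021 to 0.10. Amotl2 passed with robust moderation, array weights, the replicate block and without WT replicate 1 or 2, and Tead1 passed with a pseudocount of 5, array weights, the replicate block and without WT replicate 2, 3 or 4. At 2-fold, 0 paralogs and cofactors, 0 Hippo genes, 1 other target, 1 receptor and 0 SRF genes passed. Receptors past the threshold numbered 2 with no filter and 7 with array weights, and 2 to 5 with 1 library left out. SRF genes then numbered 5 to 10, paralogs 2 to 3, Hippo genes 8 to 11 and other targets 10 to 13. The cause of these shifts was not tested. The labels do not say whether replicate numbers pair the libraries. The correlation of deviations between same-numbered libraries was -0.086, -0.13, 0.18 and 0.038, and no library correlated best with its own number. Such correlations cannot exclude a pairing by litter or batch. With the replicate block, 6 rows passed in place of 4, and 4185 in place of 4690 genes overall. Sums without Spp1 or Trf and gene pairs without WT replicate 4 were added after seeing the data. Depth is unknown, so that counting error could not be judged.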
